A study of Mus musculus with 7 samples.

Results

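Messenger RNA of 9 genes was followed in mouse CD4+ T cells with a conditional deletion of Kdm6a and in those of littermate controls: the transcription factor genes Tcf7, Lef1, Bach2, Satb1, Foxo1, Foxp1, Klf3 and Id3 of naive and memory T cells, and the interleukin 7 receptor gene Il7r as a target of that network. The genes were chosen by symbol, and all 9 were found among the 39017 genes of the count table. Per the labels, the cells came from lymph nodes of female C57BL/6 mice on day 17 of experimental autoimmune encephalomyelitis, in which T cells attack myelin. The lymph node cells were cultured for 18 hours with 25 µg/mL of a myelin oligodendrocyte glycoprotein peptide, residues 35 to 55, before CD4+ T cells were sorted. Mice of both groups were floxed/floxed for Kdm6a, which encodes a demethylase of histone H3 lysine 27. The conditional knockout group (cKO) also carried CD4-Cre (+/-), and the wild-type littermates (WT) were CD4-Cre (-/-), so effects of Cre and of the deletion cannot be told apart. CD4-Cre becomes active in the thymus, also in precursors of CD8 T cells. Age, litter and batch are not given. There were 4 cKO libraries (replicates 2, 3, 7 and 12) and 3 WT libraries (replicates 10, 14 and 19), and the labels do not say whether they are separate animals. The p-values thus reflect spread among these samples, which may be technical.

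Naive T cells are kept quiescent and long-lived by a set of factors that are lowered or inactivated when a cell commits to an effector fate. TCF-1 (from Tcf7) and LEF-1 bind the same DNA motif through related HMG boxes and also support memory cells. FOXO1 drives Il7r and Klf2 until kinases of the AKT family remove it from the nucleus, and in mice FOXP1 binds the Il7r enhancer in competition with it. BACH2 represses effector genes, SATB1 organizes chromatin, KLF3 is a repressor, and ID3 blocks the DNA binding of E proteins.

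Total counts ran from 17910536 to 28697579 per library, lowest in cKO replicate 2. That library also held the most counts of the rRNA-like transcript Gm42418, 9.22% against 3.76% to 4.26% in the other cKO libraries and 2.55% to 2.98% in WT. Kdm6a itself had 104, 96.3, 100.2 and 104 CPM (counts scaled by TMM to a common library size) in cKO replicates 2, 3, 7 and 12, and 119.6, 125 and 113 CPM in WT replicates 10, 14 and 19. The groups did not overlap but were close, with means of 101 ± 3.67 (SD, n = 4) in cKO and 119 ± 6.01 (n = 3) in WT, a log2 fold change of -0.24 ± 0.06 (SE, edgeR quasi-likelihood test, adjusted p = 0.0414). It did not pass when cKO replicates 3 (adjusted p = 0.0985), 7 (0.0811) or 12 (0.0538), or WT replicates 10 (0.142), 14 (0.173) or 19 (0.0604), were left out in turn. Whole-gene counts do not show which exons were deleted. The summed level of 7 CD4 T cell markers was 2551 to 2893 CPM in cKO and 2317 to 2628 in WT, with Cd4 at 1118 and 1039 CPM. Summed B cell markers were at 30.02 to 151 CPM in cKO and 30.2 to 65.1 in WT, and 0 of 8 passed the threshold. The sums of natural killer (NK) markers, at 96.5 to 104 against 55.3 to 84.9 CPM, and of CD8 T cell markers, at 19.8 to 26.5 against 10.4 to 13.4, were higher in every cKO library. Without Eomes, which T cells also express, the NK sums overlapped, at 59.8 to 75.1 CPM in cKO and 49.9 to 78.3 in WT. This sum was added after seeing the data, and Prf1 made up most of it. Of 6 NK markers Klrb1c (6.73 CPM in cKO and 1.92 in WT), Eomes (30.2 and 5.28) and Klre1 (3.58 and 0.178) rose. The others did not pass, with Prf1 at 57.7 CPM in cKO and 56.0 in WT, Gzma at 1.24 and 1.77, and Ncr1 at 0.887 and 0.865. The CD8 gene Cd8a had 1.53 and 0.503 CPM.

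Of the 9 genes, Id3 rose and Foxo1 fell in cKO cells, and the other 7 did not pass the threshold of 0.05. Id3 was 1.79-fold higher and Foxo1 fell by 23.2%. Of all 15968 genes tested, 6.44% passed the threshold, 2.79% as higher and 3.64% as lower. Id3 and Foxo1 were also the 2 genes of the 9 whose cKO and WT libraries did not overlap, a share close to the 21.0% of all tested genes. The median log2 fold change of the 9 was -0.06, against 0.01 over all genes tested, with 4 values above 0 and 5 below. The number past the threshold was 4 without cKO replicate 2, where 6.73% of all genes passed, 3 without cKO replicate 12 (6.39%), and 1 without WT replicate 14 (2.58%) or 19 (2.86%). DESeq2 also called Id3 and Foxo1 (9.2% of all genes), and limma voom called Lef1 besides (10.8%). In bulk RNA, fewer cells of a type and less RNA per cell cannot be told apart.

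**Figure D1:**
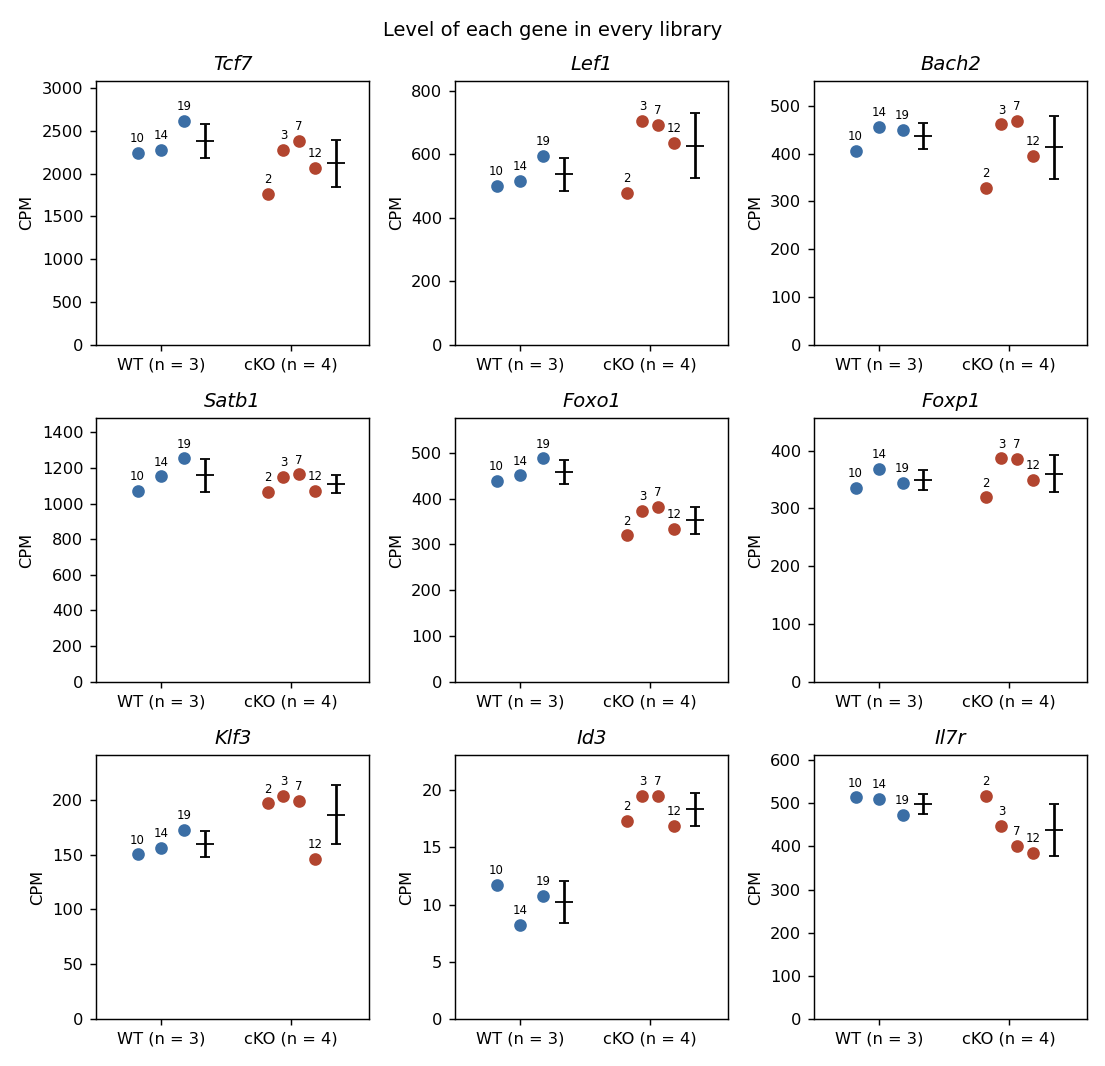
Level of each of the 9 genes in CPM (vertical axis, from 0) in every library, with the replicate number above each point and the group mean ± SD beside it (WT in blue, n = 3; cKO in red, n = 4). The cKO libraries lie above all WT libraries for Id3 and below all of them for Foxo1, and the groups overlap for the other 7 genes.

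Id3 encodes an inhibitor of DNA binding that pairs with E proteins and keeps them off DNA. It lies on chromosome 4 (136143497 to 136145755, plus strand, mm10) and was the least abundant of the 9, with 237 to 470 counts per library. Id3 had 17.4, 19.5, 19.5 and 16.9 CPM in cKO replicates 2, 3, 7 and 12. In WT replicates 10, 14 and 19 it had 11.7, 8.22 and 10.8 CPM. The lowest cKO library was therefore above the highest WT library, and the cKO libraries were close to each other. The means were 18.3 ± 1.42 CPM in cKO (SD, n = 4) and 10.2 ± 1.81 in WT (n = 3), a log2 fold change of 0.84 ± 0.13 (SE, edgeR, adjusted p = 0.0059). The exact permutation p of the CPM values was 0.0286, the smallest that 35 splits allow. The rise passed the threshold in each of the 15 alternatives, with log2 fold changes from 0.70 without WT replicate 14 to 0.95 without WT replicate 10. Of the NK and CD8 T cell markers given above, 3 of 6 and 1 of 3 rose, and their part in the rise of Id3 was not tested.

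The start of Id3 is shown because it is the gene with the largest change of the 9. The RefSeq window from 250 bases before to 50 after its start (GRCm38.p6) held 2 matches to the KLF motif CACCC, both on the opposite strand, at chr4:136143738-136143742 and chr4:136143771-136143775. This RefSeq start (136143822) lies downstream of the GENCODE gene start given above, so both matches are inside that gene. They are printed 5′ to 3′ on the plus strand with the match in capitals, within 30 bases each.
Id3, 84 bases before the RefSeq start: cagggcgggcggGGGTGgacccttggcggt
Id3, 51 bases before the RefSeq start: ttttgaataaggGGGTGtgtcctagagagg
CACCC was in 57.5% of all 32851 RefSeq windows of this length. The Id3 window held no match to the forkhead motif TGTTTAC, the TCF/LEF motif CTTTGA or the E-box CANNTG, each searched on both strands, of which CANNTG was in 72.3% of all windows.

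The partners of ID3 did not pass the threshold. Of 7 tested E protein and ID protein genes and their targets, edgeR called 0, with unadjusted p below 0.05 for 4 higher and 0 lower. The share of all tested genes at that unadjusted cutoff is not given, here or for the lists below. Such unadjusted counts therefore show no trend of a list. At the threshold of 0.05, 6.44% of all genes passed by edgeR, 9.2% by DESeq2 and 10.8% by limma voom. These shares apply to the lists below as well. By DESeq2 Tcf4 was higher, and by limma voom Tcf3 and Tcf4. The E protein genes had log2 fold changes of 0.19 for Tcf3 (121 against 106 CPM, adjusted p = 0.1), 0.83 for Tcf4 (17.2 against 9.63 CPM, adjusted p = 0.0842) and 0.16 for Tcf12 (145 ± 7.25 against 130 ± 10.1 CPM, adjusted p = 0.223), by edgeR. Tcf4 passed without cKO replicate 12. Id2, the ID gene that effector T cells use, had 213, 118, 119 and 202 CPM in cKO replicates 2, 3, 7 and 12, and 108, 116 and 96.2 CPM in WT replicates 10, 14 and 19. Its cKO libraries thus split into 2 high ones and 2 close to WT, and its log2 fold change of 0.61 ± 0.21 (SE) did not pass (edgeR, adjusted p = 0.137). The median log2 fold change of these 7 genes was 0.28.

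Foxo1 encodes the forkhead factor that maintains naive T cells and their homing and survival receptors. It lies on chromosome 3 (52268336 to 52353221, plus strand, mm10), with 5473 to 12988 counts per library. Foxo1 had 319.8, 372, 382 and 334 CPM in cKO replicates 2, 3, 7 and 12. In WT replicates 10, 14 and 19 it had 438, 450.5 and 488 CPM. All cKO libraries were below all WT libraries. The means were 352 ± 29.9 CPM in cKO (SD, n = 4) and 459 ± 25.9 in WT (n = 3), a log2 fold change of -0.38 ± 0.08 (SE, edgeR, adjusted p = 0.0188; exact permutation p = 0.0286). It did not pass without WT replicate 14 (log2 -0.40, adjusted p = 0.0715) or 19 (-0.34, 0.0848), or with a covariate for markers of other cell types (-0.35, 0.0959). B cells also express Foxo1. The summed B cell markers given above overlapped between the groups, and the part of B cells in the fall of Foxo1 was not tested.

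Foxo1 has an antisense gene, Gm20402, chosen here after its values were seen, whose exons share 674 bases with it (7.78% of its merged exons). Gm20402 stood at 54.1 ± 4.99 CPM (SD) in cKO against 72.1 ± 5.16 in WT, a log2 fold change of -0.41 ± 0.08 (SE, edgeR, adjusted p = 0.0207). Since it is not stated that counting used strand, reads of the pair cannot be told apart. Their sum was 406 ± 34.6 CPM in cKO and 531 ± 30.7 in WT, with no overlap between the groups. Foxo1 alone made up 352 and 459 CPM of these sums, so this is no separate support for its fall.

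The sequence before the start of Foxo1 is shown because this is the factor gene that fell. It covers chr3:52268087-52268335 (GRCm38.p6, plus strand, RefSeq), the bases of the window that lie before the first annotated exon, with the E-box CANNTG in capitals.
Foxo1: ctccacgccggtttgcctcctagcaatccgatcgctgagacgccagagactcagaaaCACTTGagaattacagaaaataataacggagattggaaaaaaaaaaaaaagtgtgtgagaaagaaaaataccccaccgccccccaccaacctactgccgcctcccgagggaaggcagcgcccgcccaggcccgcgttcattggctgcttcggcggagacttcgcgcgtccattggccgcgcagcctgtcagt
The Foxo1 window held 1 E-box and no match to the forkhead, TCF/LEF or KLF motif. The forkhead motif TGTTTAC was in 3.65% of the 32851 windows.

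The family and the regulators of FOXO1 included 1 call, where 6.44% of all tested genes passed. Of 20 tested genes, Sgk1, which encodes a kinase that phosphorylates FOXO factors, fell from 162 ± 17.9 CPM in WT to 83.4 ± 21.7 in cKO (SD). Its log2 fold change was -0.96 ± 0.18 (SE, edgeR, adjusted p = 0.0132), which did not pass without WT replicate 14 (0.069). None rose by edgeR, with unadjusted p below 0.05 for 1 higher gene, and DESeq2 called 0 higher and limma voom 1. Pik3cd, which encodes a catalytic subunit of the kinase upstream of AKT and had the highest CPM of the list, stood at 1147 ± 112 and 1159 ± 22.2 CPM (log2 -0.02, adjusted p = 0.94). The median log2 fold change of the list was -0.05.

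Genes known as FOXO1 targets were divided. Of 18 tested, Gabarapl1, an autophagy gene, rose, Il6ra and Ccng2 fell, and 15 did not pass, where 6.44% of all tested genes passed. Gabarapl1 had 56.7, 51.4, 50.9 and 48.1 CPM in the cKO libraries and 32.5, 31.5 and 25.3 in WT, without overlap (log2 0.80 ± 0.10 SE, edgeR, adjusted p = 0.0018). Il6ra, the interleukin 6 receptor gene, went from 198 ± 11.6 CPM in WT to 111 ± 29.8 in cKO (SD), with a log2 fold change of -0.84 ± 0.19. Ccng2, a cyclin gene of quiescent cells, went from 158 ± 3.95 to 137 ± 1.74 CPM, a log2 fold change of -0.21 ± 0.05 (edgeR, adjusted p = 0.0361). Il6ra (edgeR, adjusted p = 0.0298) did not pass with cKO replicate 12 (0.0569) or WT replicate 10 (0.0825), 14 (0.106) or 19 (0.118) left out. Ccng2 did not with cKO replicate 3 (0.0795), 7 (0.0614) or 12 (0.059) or WT replicate 10 (0.106), 14 (0.156) or 19 (0.0978) left out. Over this list the median log2 fold change was -0.03.

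Il7r, which encodes the receptor chain through which interleukin 7 keeps resting T cells alive, did not pass the threshold. It lies on chromosome 15 (9505788 to 9530176, minus strand). Il7r had 518, 447, 402 and 385 CPM in cKO replicates 2, 3, 7 and 12, and 514, 511 and 472 CPM in WT replicates 10, 14 and 19. Of the cKO libraries, replicates 3, 7 and 12 lay below all of WT and replicate 2 lay above it. The log2 fold change was -0.19 ± 0.10 (SE, edgeR, adjusted p = 0.317; exact permutation p = 0.171). Without cKO replicate 2 it was -0.28 and passed the threshold (adjusted p = 0.0471).

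Downstream of the receptor, Bcl2 rose and Pim1 and Jak3 fell among 20 tested genes of interleukin 7 receptor signalling, and 17 did not pass. Of all tested genes, 6.44% passed by edgeR, 9.2% by DESeq2 and 10.8% by limma voom. Bcl2, the survival gene, had 373, 357, 389 and 349 CPM in the cKO libraries and 179.6, 214 and 267 in WT (log2 0.74 ± 0.12 SE, edgeR, adjusted p = 0.00661). Pim1, a kinase gene induced by STAT5, stood at 505 ± 37.5 CPM (SD) in cKO against 793 ± 39.1 in WT (log2 -0.65 ± 0.07, adjusted p = 0.000843). Jak3, the kinase bound to the shared receptor chain, had 682 ± 54.8 and 887 ± 58.0 CPM (log2 -0.38 ± 0.08, adjusted p = 0.0215). Jak3 did not pass with WT replicate 10 (adjusted p = 0.0705), 14 (0.105) or 19 (0.0514) left out. Without cKO replicate 3 the list held 5 calls, where 795 of all genes passed. By DESeq2 3 genes of the list were higher and 4 lower, and by limma voom 2 and 3. The groups did not overlap for any of the 3 genes. The list's median log2 fold change was 0.03.

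Tcf7 and Lef1, which encode TCF-1 and LEF-1, had fold changes of opposite sign, and neither passed the threshold. Tcf7 (chromosome 11, 52252371 to 52283014, minus strand) had 1759, 2279, 2386 and 2062 CPM in cKO replicates 2, 3, 7 and 12, and 2246, 2281 and 2612 CPM in WT replicates 10, 14 and 19. Lef1 (chromosome 3, 131110471 to 131224356, plus strand) had 479, 705, 692 and 635 CPM in the same cKO libraries, and 499.6, 515 and 596 CPM in the WT libraries. Of the cKO libraries, replicates 3, 7 and 12 were above every WT library in Lef1, and replicate 2 was below every WT library in both genes. The log2 fold changes were -0.17 ± 0.11 for Tcf7 (SE, edgeR, adjusted p = 0.429) and 0.23 ± 0.13 for Lef1 (adjusted p = 0.358). Lef1 passed the threshold without cKO replicate 2 (log2 0.33, adjusted p = 0.0383) and by limma voom (0.34, adjusted p = 0.0468). An antisense gene not in the table, Gm43352, overlaps 13.7% of the merged exons of Lef1.

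The windows that hold a TCF/LEF or forkhead motif are shown because TCF-1, LEF-1, FOXO1 and FOXP1 bind motifs of these kinds. Of 19 RefSeq windows of the 9 genes, 3 held CTTTGA, in Lef1, Bach2 and Foxp1, and 1 held TGTTTAC, in Tcf7, where 16.0% and 3.65% of all windows held them. All 5 matches lie on the strand opposite to the gene. They are printed 5′ to 3′ along the gene (GRCm38.p6; plus strand for Lef1 and Bach2, minus strand for Foxp1 and Tcf7), at 30 bases each, with the match in capitals.
Lef1, chr3:131156102-131156131: taaaatacatggTCAAAGgaaaataggtat
Lef1, chr3:131156162-131156191: cattgtctgttcTCAAAGtcaggtcttgca
Bach2, chr4:32417330-32417359: actgtgttgttcTCAAAGttgagtagagtt
Foxp1, chr6:99266702-99266731: gcaagatcacatTCAAAGgtagatctccca
Tcf7, chr11:52282576-52282605: cctttataggaGTAAACAgacccccgccat
All of these windows are at RefSeq starts that lie inside the GENCODE genes given here, that of Bach2 included. A match describes the letters and not a bound site.

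Among 17 tested relatives and cofactors of TCF-1 and LEF-1, Axin2 and Tcf7l1 fell, where 6.44% of all tested genes passed. Axin2, a feedback inhibitor of Wnt signalling and a standard target of TCF with beta-catenin, had 60.4, 76.6, 75.9 and 65.5 CPM in the cKO libraries and 104, 104 and 110.2 CPM in WT. The groups were well apart (log2 -0.61 ± 0.09 SE, edgeR, adjusted p = 0.00368). Tcf7l1, which encodes TCF-3, had 5.52 ± 0.745 and 8.33 ± 0.219 CPM (SD; log2 -0.59 ± 0.14, adjusted p = 0.0358). Tcf7l1 did not pass when cKO replicates 7 (adjusted p = 0.0552) or 12 (0.0615), or WT replicates 10 (0.109), 14 (0.136) or 19 (0.124), were left out in turn. None rose by edgeR, DESeq2 or limma voom, with unadjusted p below 0.05 for 2 higher genes by edgeR. The list's median log2 fold change was -0.06.

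Klf3 encodes a repressor that works with CtBP and has been linked to lymphocyte homing in mice. On chromosome 5 (64803388 to 64832901, plus strand), it had 197, 204, 199 and 146 CPM in cKO replicates 2, 3, 7 and 12, and 150.1, 156 and 173 CPM in WT replicates 10, 14 and 19. All cKO libraries but replicate 12 were above WT, and replicate 12 was below it. The log2 fold change was 0.22 ± 0.11 (SE, edgeR, adjusted p = 0.298). Without cKO replicate 12 it was 0.32 and passed (adjusted p = 0.0277). Of 17 tested genes of the FOXP and KLF families and CtBP, edgeR and limma voom called 0, and DESeq2 called Klf10 lower, as edgeR did without cKO replicate 7. By edgeR 2 higher and 2 lower genes had an unadjusted p below 0.05. Those with the highest CPM were Klf13, with 1114 ± 188 CPM in cKO and 1274 ± 47.7 in WT, and Klf2, with 765 ± 136 and 766 ± 71.7.

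Bach2, Satb1 and Foxp1 had log2 fold changes within 0.1 of 0 and did not pass. Bach2 (chromosome 4, 32238804 to 32586108, plus strand) had 328, 461, 468 and 395 CPM in cKO replicates 2, 3, 7 and 12, and 406, 456 and 450.4 CPM in WT replicates 10, 14 and 19. Its log2 fold change was -0.08 ± 0.12 (SE, edgeR, adjusted p = 0.746), and 0.01 without cKO replicate 2. Satb1 (chromosome 17, 51736187 to 51833290, minus strand) had 1064, 1147, 1164 and 1070.2 CPM in cKO and 1069, 1153 and 1254 CPM in WT, a log2 fold change of -0.06 ± 0.07 (adjusted p = 0.695). Foxp1 (chromosome 6, 98925338 to 99522721, minus strand) had 319, 386, 386 and 349.7 CPM in cKO and 335, 368 and 344 CPM in WT, a log2 fold change of 0.05 ± 0.08 (adjusted p = 0.797). In all 3 genes the 2 groups overlapped, and cKO replicate 2 was the lowest cKO library. That library was the lowest cKO library in 6 of the 9 genes and the highest in Il7r. Among WT libraries, replicate 10 was the lowest in 7 of the 9 genes and the highest in Id3 and Il7r.

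**Figure D2:**
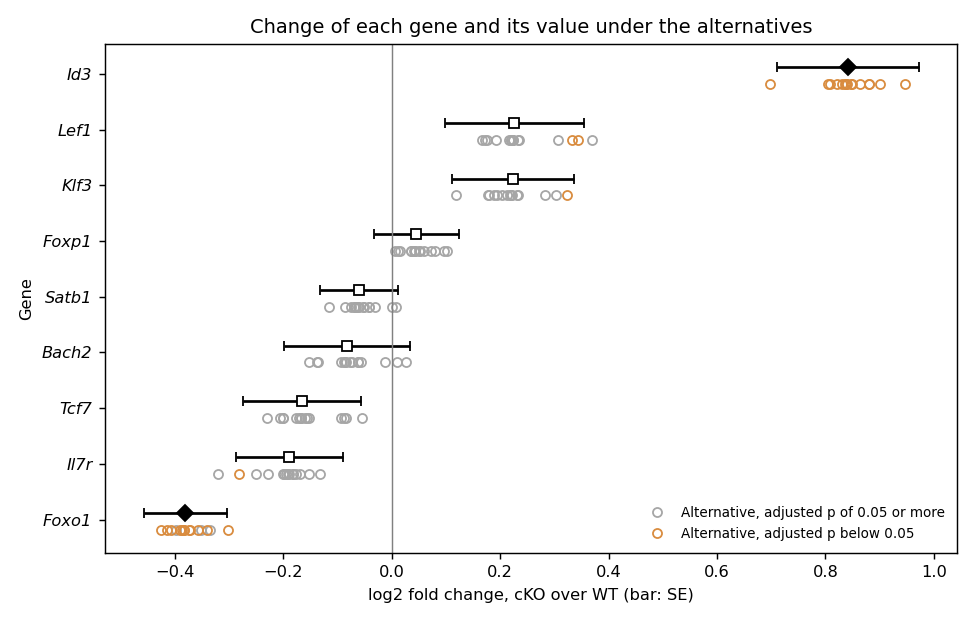
Log2 fold change of each gene, cKO over WT (horizontal axis), with its SE as a bar; filled diamonds passed the threshold and open squares did not. Open circles give the same value under 15 alternatives, in orange where the adjusted p was below 0.05, and show Id3 between 0.70 and 0.95 and the other 8 genes between -0.43 and 0.37.

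Genes known to be repressed by BACH2, with its relatives and partners, included 2 calls among 14 tested by edgeR, both higher. Of all tested genes, 6.44% passed by edgeR, 9.2% by DESeq2 and 10.8% by limma voom. DESeq2 called 3 higher (Il5, Il1rl1 and Klrg1) and 2 lower. The limma voom fit called 2 higher (Il1rl1 and Klrg1) and 2 lower, the lower ones being Bach1 and Mafg. Klrg1, a receptor gene of terminal effector cells, had 43.0, 25.8, 18.9 and 23.4 CPM in the cKO libraries and 6.54, 4.13 and 3.70 in WT (log2 2.53 ± 0.31 SE, edgeR, adjusted p = 0.00161). Il5, a type 2 cytokine gene, had 27.3, 2.70, 6.25 and 19.4 CPM in cKO and 1.82, 1.25 and 0.473 in WT (log2 3.54 ± 0.81, adjusted p = 0.0319). Il5 varied widely within cKO and did not pass with either cKO replicate 12 (adjusted p = 0.0583) or any WT replicate (10, 0.0881; 14, 0.136; 19, 0.134) left out. Il1rl1 is also 1 of 5 innate lymphoid cell markers, whose sum was 360 to 726 CPM in cKO and 299 to 385 in WT. The sum was highest in cKO replicate 2. Of these markers only Nmur1 passed, as higher, with 13.6 CPM in cKO and 1.37 in WT. The part of such cells in the calls of this list was not tested. The BACH2 list held 4 calls without cKO replicate 7, where 887 of all genes passed. With unadjusted p below 0.05, 7 genes were higher and 3 lower, without the share of all tested genes at that cutoff to set beside them. The median log2 fold change was 0.10. Among 10 tested relatives and chromatin partners of SATB1, edgeR and limma voom called 0 and DESeq2 called Mta1 lower, and by edgeR 1 higher and 1 lower gene had an unadjusted p below 0.05. Chd4, with the highest CPM, had 713 ± 17.9 and 744 ± 37.9 CPM, and Bptf 542 ± 31.5 and 499.7 ± 20.8.

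Per length of transcript, the 9 genes covered a wide range of levels, given as RPKM (CPM per kilobase of merged exons). Tcf7 was far above the others in WT, at 907 ± 77.0 RPKM (SD, n = 3), higher than 99.9% of the genes tested. Il7r followed at 107 ± 4.99, then Lef1 at 61.1 ± 5.89, Satb1 at 60.9 ± 4.85 and Foxo1 at 53.0 ± 2.99. Bach2 had 44.0 ± 2.76 RPKM, Foxp1 25.4 ± 1.21, Klf3 14.2 ± 1.05 and Id3 5.72 ± 1.01. In WT the library ranges of Lef1 and Satb1 overlapped, as did those of Satb1 and Foxo1, and other neighbours in the order did not. In cKO Foxo1, at 40.6 ± 3.45 RPKM (n = 4), stood below Bach2, at 41.6 ± 6.59, with overlapping ranges, and the order was otherwise as in WT. Id3 remained the lowest in cKO, at 10.2 ± 0.791 RPKM.

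**Figure D3:**
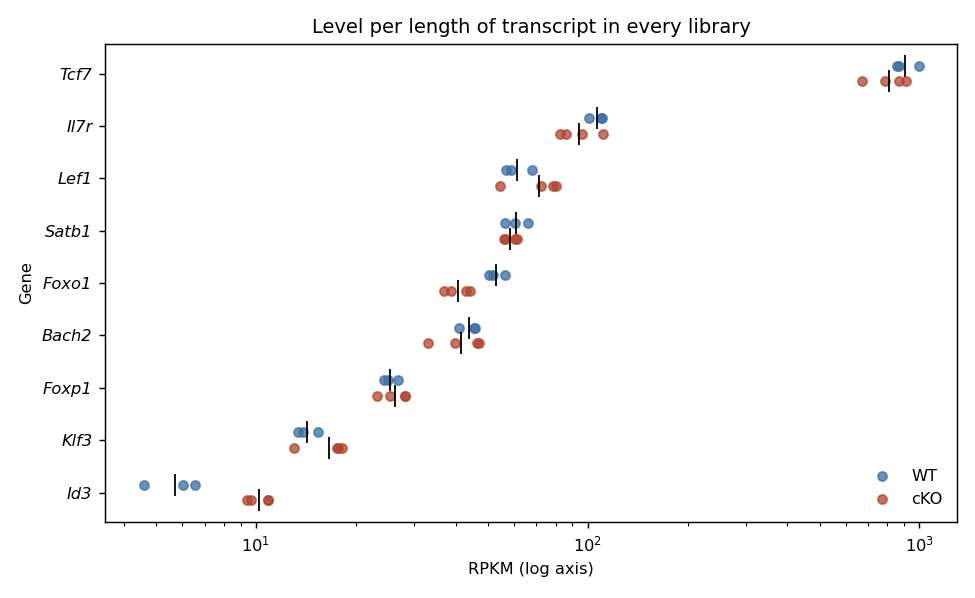
RPKM of each gene (horizontal log axis) in every library, WT in blue (n = 3) and cKO in red (n = 4), with a black tick at each group mean. In WT, Tcf7 stands at 907 RPKM and Id3 at 5.72, and the points of the 2 groups are apart for Id3 and Foxo1.

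Ratios of genes that act against each other or in place of each other were taken within each library, where the scaling between libraries has no part. Of 6 ratios, that of Tcf7 to Lef1 was the tightest in WT, at 2.168, 2.15 and 2.13 on the log2 scale in replicates 10, 14 and 19. In cKO replicates 2, 3, 7 and 12 it was 1.88, 1.69, 1.79 and 1.70, so every cKO library was lower, with a difference of means of -0.39. The ratio of Foxo1 to Foxp1 was 0.00, -0.05, -0.01 and -0.06 in cKO and 0.39, 0.29 and 0.50 in WT, a difference of -0.43. The cKO values were again below all WT values and lay close together. The ratio of Il7r to Il2ra, the receptor gene of activated cells, was -0.69 ± 0.56 (SD) in cKO and 0.35 ± 0.18 in WT, a difference of -1.04 without overlap. Il2ra itself was at 735 ± 271 and 393 ± 62.9 CPM and did not pass the threshold (edgeR, adjusted p = 0.0709). Each of these 3 differences had an exact permutation p of 0.0286, the smallest possible, and 0.0571 after Benjamini-Hochberg adjustment over the 6 ratios, which is above the threshold. The ratio of Klf3 to Klf2 was -2.03 ± 0.11 in cKO and -2.26 ± 0.03 in WT (exact permutation p = 0.0571, adjusted 0.0857). Those of Id3 to Id2 (difference 0.29, exact permutation p = 0.429) and Bach2 to Prdm1 (-0.03, exact permutation p = 0.914) overlapped between groups. Prdm1, which encodes the effector regulator BLIMP-1, had 60.1 ± 6.36 and 63.3 ± 11.7 CPM.

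**Figure D4:**
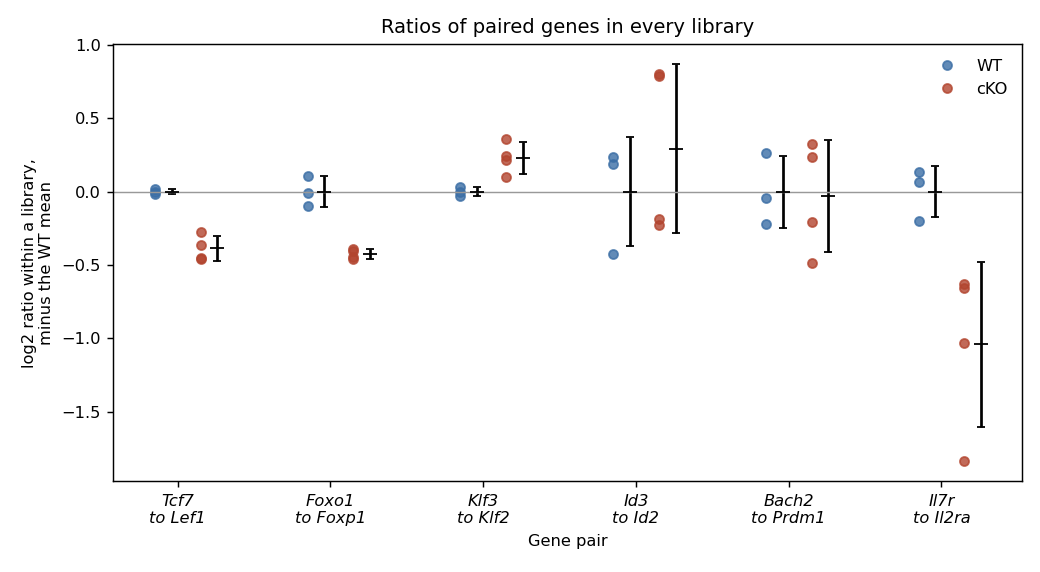
Log2 ratio of paired genes within each library, minus the mean of the WT libraries (vertical axis), for 6 gene pairs, with WT in blue (n = 3), cKO in red (n = 4) and black bars for the group mean ± SD. The cKO points lie below all WT points for Tcf7 to Lef1, Foxo1 to Foxp1 and Il7r to Il2ra, with differences of -0.39, -0.43 and -1.04.

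The genes most like Foxo1 and Id3 across the 7 libraries were found among 9912 genes by the root mean square difference of centred log2 CPM. Since they were picked on the same libraries, changes in the direction of Foxo1 or Id3 follow from the choice. Their p-values are given as a description and are no separate result. For Foxo1 they were Slc25a37, a mitochondrial iron importer gene, Sh3bp1 and Sun2, which encodes a protein of the nuclear envelope, at differences of 0.0352, 0.0352 and 0.0405. Sh3bp1 fell (log2 -0.40 ± 0.08 SE, edgeR, adjusted p = 0.02), as did Slc25a37 (-0.35 ± 0.08, adjusted p = 0.0278), and Sun2 had -0.30 ± 0.08 (adjusted p = 0.0535). Sh3bp1 did not pass without WT replicate 10 (0.0525), 14 (0.0604) or 19 (0.0873), nor Slc25a37 without cKO replicate 3 (0.052), cKO replicate 12 (0.052), or WT replicates 10 (0.0509), 14 (0.117) or 19 (0.12) in turn. For Id3 they were Trim2, a ubiquitin ligase gene, and Oasl1 and Oas1a, both of the interferon-induced oligoadenylate synthetase family, at 0.151, 0.162 and 0.162. Oasl1 rose from 18.0 ± 3.14 CPM in WT to 32.9 ± 3.45 in cKO (SD; log2 0.87 ± 0.13, adjusted p = 0.00437). Oas1a rose by 0.69 ± 0.13 (adjusted p = 0.0139) and Trim2 by 0.68 ± 0.16 (adjusted p = 0.0331). Oas1a did not pass without WT replicate 10 (0.0582) or 14 (0.0837), nor Trim2 without cKO replicates 3 (0.0791) or 7 (0.0615), or WT replicates 10 (0.117), 14 (0.154) or 19 (0.0563) in turn.

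Transcription factor genes of effector T cells, which act against the naive program, were set beside the 9. Of 24 tested, Eomes, Ikzf2 and Tbx21 rose, 1 gene fell and 20 did not pass, where 6.44% of all tested genes passed. Eomes, a T-box gene, had 44.3, 28.1, 24.6 and 23.7 CPM in the cKO libraries and 5.38, 3.85 and 6.62 in WT. Tbx21, which encodes T-bet, had 52.1, 35.2, 29.7 and 48.7 CPM in cKO and 18.1, 23.2 and 14.8 in WT. Both were higher in every cKO library, at log2 2.51 ± 0.26 (SE, edgeR, adjusted p = 0.000653) and 1.14 ± 0.22 (adjusted p = 0.0142). Ikzf2, which encodes Helios, had 259 ± 82.8 and 115 ± 23.6 CPM (SD; log2 1.17 ± 0.24, adjusted p = 0.0184). Tbx21 did not pass without WT replicate 10 (0.0694) or 19 (0.0678), nor Ikzf2 without WT replicate 14 (0.0998) or 19 (0.089). The median log2 fold change of the list was 0.24. Eomes is itself one of the NK markers, of which 3 of 6 rose, and the part of such cells in these calls was not tested.

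Surface and state genes that mark naive or central memory T cells moved in both directions. Of 30 tested, 4 rose, 9 fell and 17 did not pass, with a median log2 fold change of -0.06. Over all tested genes, 2.79% rose and 3.64% fell. The 4 with the lowest p all fell: Dapl1, expressed in naive T cells, Tdrp, Ramp1, a receptor partner for calcitonin gene-related peptide, and Tob1, an antiproliferative gene of quiescent T cells. Dapl1 had 0.292, 0.333, 0.564 and 0.426 CPM in the cKO libraries and 14.9, 10.3 and 15.7 CPM in WT (log2 -5.04 ± 0.24 SE, edgeR, adjusted p = 2.09e-05). Tob1 had 70.9, 70.5, 82.0 and 58.9 CPM in cKO and 153, 162 and 156 in WT, with no overlap (log2 -1.15 ± 0.10, adjusted p = 0.000217). Tdrp had 31.5 ± 2.98 and 95.1 ± 8.77 CPM (SD), and Ramp1 10.7 ± 0.910 and 27.7 ± 0.713. With WT replicate 14 left out 1 rose, with WT replicate 19 left out 2 rose, and with any 1 WT replicate left out 8 fell. Over all genes, 2.58% passed without WT replicate 14 and 2.86% without 19, and 497 genes passed without 10.

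**Figure D5:**
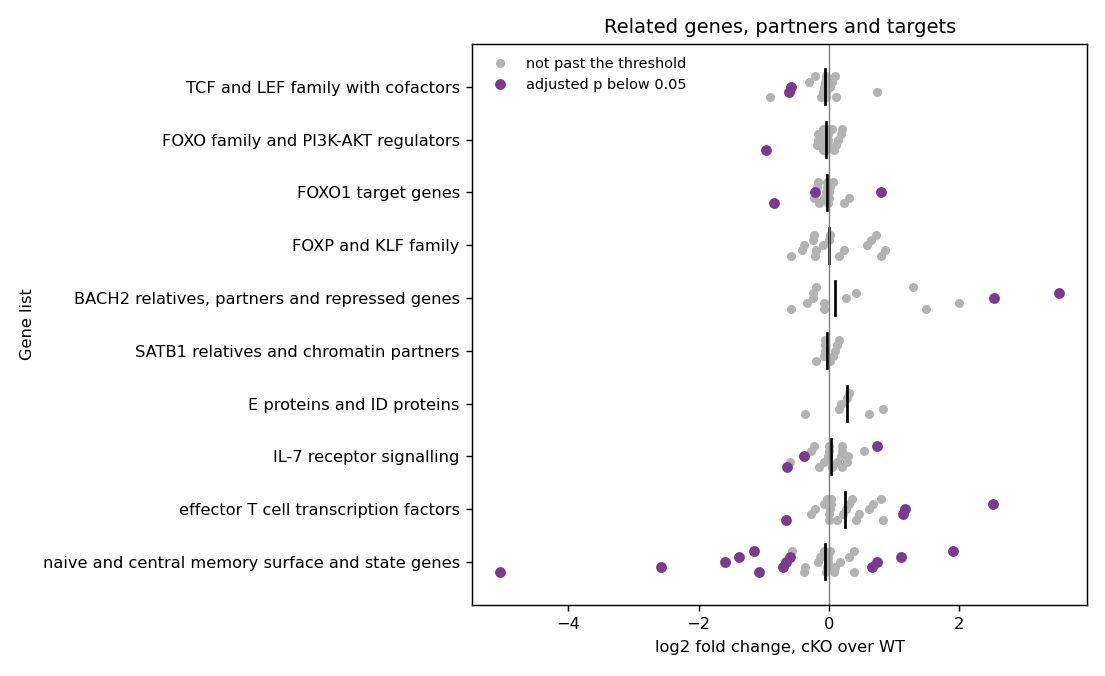
Log2 fold change, cKO over WT (horizontal axis), of every tested gene in 10 lists of related genes, partners and targets (rows; vertical offsets within a row only separate points), in purple where the adjusted p was below 0.05 and in grey otherwise, with a black line at each list's median. The medians lie between -0.06 and 0.28, and the naive and central memory list holds 13 calls among 30 tested genes (6.44% of all genes passed).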

How the data were processed

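CD4+ T cell RNA was sequenced in 7 libraries. The table deposited by the authors holds whole-number read counts per Ensembl gene with no normalization. Per the labels' protocols, the kit keeps strand and mRNA was enriched. Per the submitters' processing notes, bcl2fastq 2.17 and mm10 were used, and neither aligner nor counter is named. GENCODE models of that build gave symbols to 37607 of 39017 genes, the others taking up to 1.79% of counts in a library.

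Genes kept by filterByExpr were scaled by TMM and compared with edgeR 4.0.16 (R 4.3.3; quasi-likelihood, no covariate), adjusting over all 15968 by Benjamini-Hochberg at a threshold of 0.05. SE values come from the F statistic. Exact permutations of single values are two-sided over 35 arrangements, with 0.0286 the smallest p. The fit was tested on simulated counts. Alternatives used other scalings, no or stricter filtering, DESeq2 1.42.0, limma 3.58.1 (voom), a marker covariate (B cells, monocytes, dendritic cells), a threshold of 0.1, and each library left out. Removing Gm42418 and the NK sum without Eomes were added after seeing the data. No pair of libraries looked duplicated (chi-square per gene at least 6.28).

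The 9 genes and the lists (187 entries) were chosen with earlier results of these data known. Named are the 9 genes, Kdm6a, ratio partners, the 3 genes most like each of the 9 that passed, and per list up to 4 genes past the threshold by lowest p, filled to 2 with the most abundant. Other names were chosen after their values were seen. Some genes this rule names are left out of the text. Promoter sequences come from RefSeq on GRCm38.p6.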

Additional observations from a re-analysis of the deposited data

Results flagged for a closer look

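Among 48 values checked for a cKO library far from the other cKO libraries, 1 was found, where chance gives about 1 in 20. Klf3 stood at 146 CPM in cKO replicate 12, while the other cKO libraries lay between 197 and 204 CPM and the WT libraries between 150.1 and 173.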

How the results depend on the processing

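Under the 15 alternatives, Id3, Tcf7 and Foxp1 kept their direction and their side of the threshold. The log2 fold change of Foxo1 was -0.35 with the marker covariate, where it no longer passed, and -0.43 to -0.34 when 1 library was left out. Lef1 had 0.34 by limma voom, where it passed, and 0.17 to 0.33 over the left-out libraries. Without 1 library Klf3 ran from 0.18 to 0.32 and Il7r from -0.28 to -0.13, each passing in 1 case. With the covariate Lef1 had 0.37, Klf3 0.12 and Il7r -0.32, none of which passed. Bach2 turned to 0.027 by limma voom and ran from -0.15 to 0.0100 without 1 library, and Satb1 turned to 0.0080 by limma voom and ran from -0.12 to 0.00021. Of the 9 genes, 1 passed with the covariate and 1 to 4 without 1 library. Over all genes, 1609 passed by DESeq2, 1729 by limma voom, 586 with the covariate, 1644 at a threshold of 0.1 and 419 to 1065 without 1 library. The ratio of Bach2 to Prdm1 differed by -0.15 to 0.12 without 1 library. The causes were not tested. No other scaling moved the median log2 fold change of all genes beyond 0.02. Id3 had 237 to 470 counts per library, the fewest of the 9. No paired analysis was possible because the groups share no replicate number.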

Other observations

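Klf3 has an antisense gene, Gm20033, whose exons share 404 bases with it. Gm20033 had 5.26, 5.36, 4.77 and 4.36 CPM in cKO replicates 2, 3, 7 and 12 and 2.51, 2.29 and 2.52 CPM in WT replicates 10, 14 and 19. It rose by 1.02 ± 0.16 on the log2 scale (SE, edgeR, adjusted p = 0.0064), higher in 4 of 4 cKO libraries, while Klf3 itself did not pass. It was chosen after its values were seen. Bach2os, antisense to Bach2 over 537 shared bases, stood at 34.3 ± 5.99 CPM (SD) against 35.6 ± 2.60 in WT (log2 -0.05 ± 0.13, adjusted p = 0.874).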
